A study of Saccharomyces cerevisiae with 20 samples.

Results

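The Isw2 deletion (Δisw2) was compared between its growth phases, stationary phase against diauxic shift, in the 4 Δisw2 libraries of a series of 20 RNA-Seq libraries. The members were taken by strain and phase, with 2 libraries at diauxic shift and 2 at stationary phase. No measured value entered this rule, though earlier results of these data were known. The columns carry strain numbers that the labels do not hold. The series holds wild type and 4 deletion strains of Saccharomyces cerevisiae W303, a common laboratory strain, each in both phases, and was made to ask how these regulators shape transcription after glucose is used up. All strains derive from the same W303 RAD5+ parent, and ISW2 had been replaced by an antibiotic resistance marker. Cultures grew in 25 mL of YPD, a rich glucose medium, at 30 °C. Diauxic shift cells were collected 2 hours after glucose could no longer be detected, and stationary phase cells after 3 days of growth. Messenger RNA was selected by its poly-A tail. The libraries of a phase are called A and B after the numbering of their columns, and library B at stationary phase carries another strain number than the other Δisw2 libraries, so that a second isolate cannot be told apart from a library effect there.

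Isw2 is the motor of a chromatin remodeler of the ISWI family that slides nucleosomes along DNA, with Itc1 as its main partner and Dpb4 and Dls1 as small subunits. In yeast it is best known for closing promoters of early meiotic genes next to the repressor Ume6, and it also acts with the corepressor Tup1. At the diauxic shift cells that have used up glucose turn from fermentation to respiring the ethanol they made, and in stationary phase they stop dividing, store carbohydrate and lower the making of ribosomes.

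The libraries held 25508535 and 30430109 reads on genes at diauxic shift and 10647647 and 3076006 at stationary phase. ISW2 itself had 1 and 3 reads at diauxic shift and 1 and 4 at stationary phase in Δisw2, against between 511 and 3008 in the 4 wild type libraries, as the labels say. Between 11.2% and 13.2% of reads fell on the 10 most abundant genes of a library. Among 5384 genes with 100 or more normalized counts on average, libraries A and B differed at least 2-fold for 107 genes at diauxic shift and for 25 at stationary phase. Bulk RNA does not tell fewer cells of a type from less RNA per cell, and total RNA per cell was not measured.

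Of 6765 genes found in both tables, 6143 had enough reads for a test. A gene was called where the limma adjusted p was under 0.05 and the change at least 1.5-fold. In all 35% of genes tested were called. At stationary phase 1068 genes (17.4%) were called higher and 1083 (17.6%) lower, and these shares are the background for every count below. The log2 values of libraries A and B correlated across genes with r = 0.983 at either phase, and libraries of different phases with r between 0.926 and 0.943, a description over 6143 genes that are not independent. With 2 libraries a phase the phases did not overlap for 35.7% of genes tested in the higher direction and 36.7% in the lower, so non-overlap is common and is given below as a description. With 2 libraries against 2, an exact two-sided permutation test of a single gene cannot go below 0.333, so the calls rest on the spread shared across genes in limma. Leaving out library A at stationary phase left 1204 calls and leaving out library B left 1007. Scaling by total reads in place of the median of ratios turned the split into 1398 higher and 747 lower, with the median gene at 0.13 on the log2 scale in place of -0.02. It also turned the sign of the small negative medians of the ribosomal proteins, proteasome, tRNA ligases, histones, G1 genes, nucleotide synthesis, a-specific and mitochondrially encoded genes, for which no common direction is given.

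**Figure D1:**
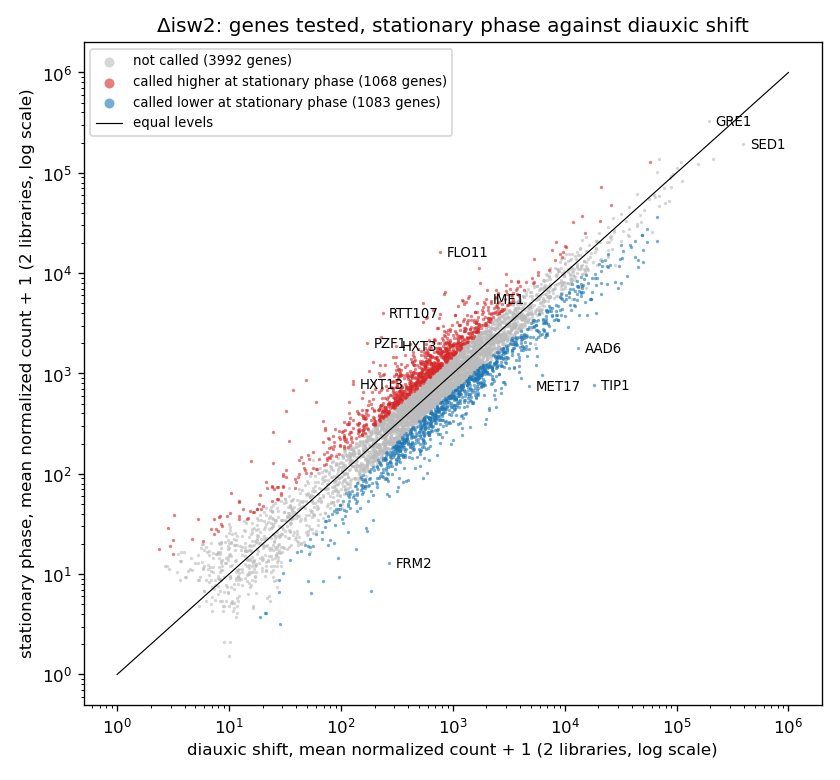
Mean normalized count + 1 of each gene tested in Δisw2 at diauxic shift (x axis) and stationary phase (y axis), both on log scales, 2 libraries a phase; red points were called higher (1068), blue points lower (1083), grey points were not called and the line marks equal levels. FLO11 and TIP1 sit far from the line on opposite sides, while the most abundant genes, such as GRE1 and SED1, sit closer to it and were not called.

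The largest rise was that of FLO11, a flocculin of the cell surface that lets cells stick to each other and to surfaces. Its normalized counts were 939 and 609 at diauxic shift and 17226 and 15073 at stationary phase, in libraries A and B of each phase. Phases that did not overlap were a condition for the largest rises and falls named here. The rise was 20.9-fold by the means, with a log2 fold change of 4.41 ± 0.23 (SE) and adjusted p = 1.93e-06 in limma. Of the 37-base stretches of FLO11, 33.55% are present more than once in the genome, a share that counts repeats within a gene as well as copies elsewhere. FLO11 lies on chromosome IX at 389572 to 393675, and PWR1, a noncoding RNA annotated upstream of it at 395999 to 396939, rose as well. PWR1 had counts of 32.4 and 30.1 at diauxic shift and 450.3 and 385 at stationary phase, a log2 fold change of 3.69 ± 0.25. ICR1, the longer noncoding RNA at 393884 to 397082 on the opposite strand, contains the whole of PWR1 and was not called, with 330.0 and 378 at diauxic shift and 526 and 461 at stationary phase (log2 fold change 0.48 ± 0.19, adjusted p = 0.0704). Whether counting used the strand is not given in the sources used here, so reads of PWR1 and ICR1 cannot be told apart in their overlap.

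The other large rises were of genes with varied roles. RTT107, a scaffold of DNA repair at stalled replication forks, went from 207 and 262 to 4161 and 3912 (log2 fold change 4.11 ± 0.19, adjusted p = 1.93e-06). PZF1, the transcription factor TFIIIA that RNA polymerase III needs for 5S rRNA, went from 179 and 163 to 2082 and 1942, a log2 fold change of 3.55 ± 0.18. Libraries A and B of a phase lay close together for both genes, against rises of 17.2-fold and 11.7-fold. FYV7 and NOP16, both needed to process ribosomal RNA, had log2 fold changes of 3.34 ± 0.18 and 2.92 ± 0.18. SLK19, a kinetochore and spindle protein, had 479.9 and 612 at diauxic shift and 5324 and 4718 at stationary phase, and SNT309, a splicing factor, had 992 and 724 at diauxic shift and 5697 and 7366 at stationary phase. CSS1, a protein of unknown role that is secreted or held at the surface, had a log2 fold change of 3.17 ± 0.29. Of its 37-base stretches, 22.15% are present more than once in the genome. The remaining members among the 12 largest rises were YGR022C (4.31 ± 0.35), YOR387C (4.28 ± 0.43) and YOR333C (3.43 ± 0.37), reading frames to which no role is given here. YGR022C and YOR333C had no match in the annotation searched for overlapping genes, so reads shared with other genes were not checked for them.

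The largest fall among genes with 100 or more normalized counts on average was that of TIP1, a cell wall mannoprotein. Its counts were 19089 and 17672 at diauxic shift and 953 and 586 at stationary phase, a 23.9-fold fall of the means, with a log2 fold change of -4.62 ± 0.23 and adjusted p = 1.93e-06 in limma. That the phases of TIP1 do not overlap follows from the choice of the largest falls. FRM2 and HBN1, similar nitroreductase-like genes that neighbour each other on chromosome III at 74704 to 75285 and 73405 to 73986, fell as well. FRM2 had 148 and 389 at diauxic shift and 7.61 and 16 at stationary phase (log2 fold change -4.32 ± 0.49), and HBN1 had 386 and 694 at diauxic shift and 88.1 and 92.3 at stationary phase (-2.51 ± 0.28). AAD6, annotated as a pseudogene of an aryl-alcohol dehydrogenase, had 12482 and 13749 at diauxic shift and 1647 and 1958 at stationary phase. Of its 37-base stretches, 28.14% are present more than once in the genome. ATG41, an autophagy factor, had 6128 and 6285 at diauxic shift and 600.4 and 1344 at stationary phase, a log2 fold change of -2.79 ± 0.31.

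The other large falls were in amino acid synthesis and among cell wall genes. MET17, which builds homocysteine from sulfide, had 3398 and 6215 at diauxic shift and 731 and 778 at stationary phase (log2 fold change -2.61 ± 0.25). HOM3, aspartate kinase at the head of the threonine and methionine pathway, had 1391 and 2505 at diauxic shift and 329.6 and 293 at stationary phase (-2.58 ± 0.25), and ARG3, of arginine synthesis, had 1253 and 2693 at diauxic shift and 314 and 393 at stationary phase (-2.38 ± 0.30). All 3 had spread at diauxic shift, where library B was the higher, and that their phases do not overlap follows from the choice. DSE4 and DSE1, which act on the cell wall, had log2 fold changes of -2.42 ± 0.24 and -2.32 ± 0.25. YKL033W-A and YHR175W-A, whose roles are not well known, had -2.55 ± 0.21 and -2.50 ± 0.28.

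**Figure D2:**
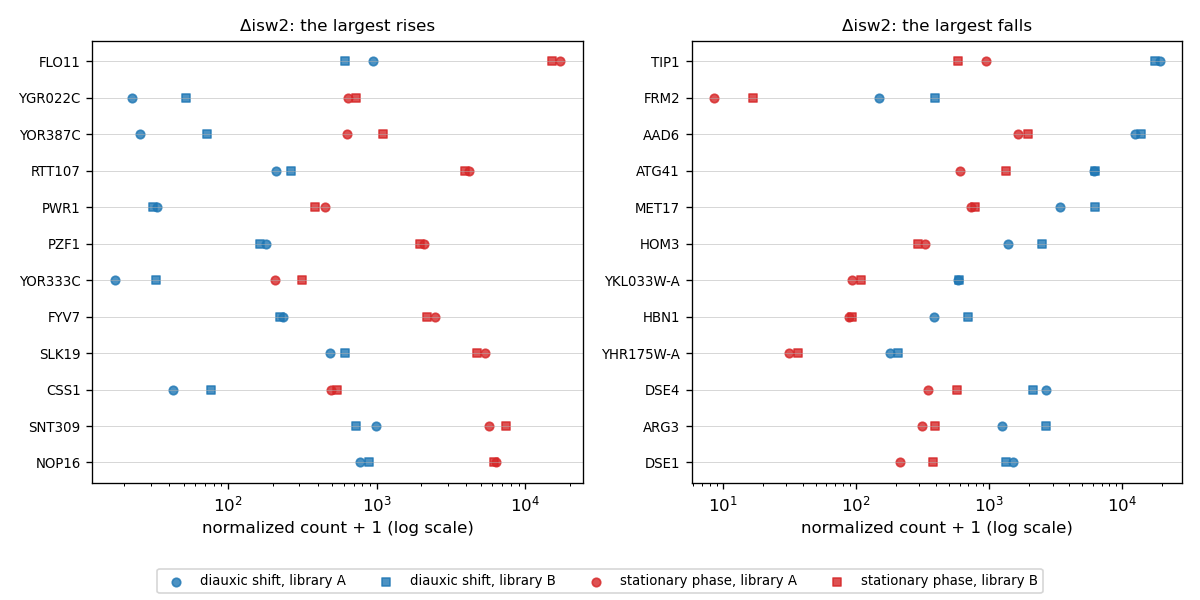
Normalized count + 1 (log scale) of the 12 largest rises (left) and the 12 largest falls (right) in Δisw2, 1 point a library, blue at diauxic shift and red at stationary phase, circles for library A and squares for library B. The genes were picked for phases that do not overlap, so the separation of red from blue follows from the choice, and the gap between phases is wider than the gap between libraries of a phase.

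The most abundant RNAs for their length did not pass the test in either direction. Per kilobase, DDR2, SED1, GRE1, SIP18 and YER053C-A led at diauxic shift, and GRE1, SIP18, DDR2, HSP12 and HSP26 at stationary phase. GRE1, a hydrophilin that protects proteins on drying, had 190086 and 200002 at diauxic shift and 261801 and 391270.2 at stationary phase (log2 fold change 0.71 ± 0.41, adjusted p = 0.183). SIP18, a related hydrophilin, had 76033 and 64748 at diauxic shift and 103652 and 172006 at stationary phase (0.93 ± 0.35, adjusted p = 0.0578). SED1, the main wall protein of starved cells, had 442194 and 347057 at diauxic shift and 192263 and 191641 at stationary phase (-1.03 ± 0.40, adjusted p = 0.0652). The phases did not overlap for GRE1, SIP18 or SED1, like most genes tested, and none passed the test. DDR2 (-0.45 ± 0.32) and YER053C-A (-0.58 ± 0.29) were not called, and HSP12 (-0.15 ± 0.32) and HSP26 (0.22 ± 0.34), small heat shock proteins, overlapped between phases.

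Of 15 tested genes of Isw2's own complex, its relatives and its partners, 7 were called higher and 1 lower. ITC1, the partner subunit that remains without Isw2, rose from 1029 and 978 to 2084 and 2764 (log2 fold change 1.26 ± 0.19, adjusted p = 0.000863). DPB4 (0.18 ± 0.19) and DLS1 (-0.36 ± 0.19), the small subunits, were not called. ISW1, the related ISWI motor, rose from 499 and 622 to 892 and 875 (0.66 ± 0.19), with its partners IOC3 (0.60 ± 0.18) and IOC4 (0.79 ± 0.17), whereas IOC2 was not called (-0.23 ± 0.19). CHD1, another nucleosome spacing motor, rose by 0.68 on the log2 scale. Of the corepressors, CYC8 rose (0.85 ± 0.19) and TUP1, with which it forms a complex, fell from 3232 and 3387 to 2045 and 1862 (-0.76 ± 0.17). SIN3, scaffold of the Rpd3 deacetylase complex, rose (0.63 ± 0.17), while UME6 (-0.12 ± 0.17), RPD3 (0.11 ± 0.17), SDS3 (0.37 ± 0.20) and the starvation repressor XBP1 (-0.30 ± 0.21) were not called. Without library A at stationary phase 2 of these genes were called higher and none lower, and the same counts held without library B, with ITC1 in both, IOC4 only without library A and CYC8 only without library B (adjusted p = 0.0661 and 0.132 for TUP1).

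Ribosome biogenesis factors, which process rRNA and assemble ribosomal subunits in the nucleolus, were higher at stationary phase in Δisw2. Of 99 tested, 50 rose and 2 fell, with a median log2 fold change of 0.65, against 17.4% called higher and a median of -0.02 over all genes tested. The 50 became 28 without library A at stationary phase, 36 without library B, and 47 and 62 without library A or B at diauxic shift, and the median stayed between 0.53 and 0.74. Within this list of 99 the largest rise was that of RRP14, a nucleolar protein of both subunits' assembly, with 654 and 681 at diauxic shift and 4356 and 4253 at stationary phase. The log2 fold change of RRP14 was 2.69 ± 0.17 with adjusted p = 8.27e-06 in limma. KRI1, needed for the small subunit, had 704 and 793 at diauxic shift and 3359.9 and 3779 at stationary phase (2.25 ± 0.18), NOP8, needed for the large subunit, had 195 and 242 at diauxic shift and 972 and 1055 at stationary phase (2.21 ± 0.19), and REA1, the giant ATPase that strips factors from the large subunit, had 1752 and 1729 at diauxic shift and 8494 and 7579 at stationary phase (2.20 ± 0.18). These 3 were chosen after their values were seen. NOP10, the most abundant member per kilobase, was not called (0.30 ± 0.21), and YTM1, a partner of Rea1, was called lower (-0.84 ± 0.25), though not without library B at stationary phase (adjusted p = 0.194).

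Promoters of this group carry 2 known short sequences, PAC (GATGAG) and RRPE (AAAATTT). In the 300 bases before the start codon, searched on both strands, PAC was found in 88.9% of the 99 promoters and RRPE in 94.9%, against 19.1% and 24.4% of all 6001 annotated promoters. Both were present in 84 of the 99 and in 7.53% of all promoters. Both stood in 45 of the 50 members called higher and in 39 of the other 49. The stretches that hold both are shown for the 4 largest rises in which all matches lie close together, 5′ to 3′ on the strand of the gene, with the motif matches in capitals (CTCATC is PAC and AAAATTT is RRPE read on either strand, and neighbouring matches run together). They were read from the R64 (sacCer3) reference genome at chrXI:282399-282513 (minus strand) for RRP14, chrXIV:55953-56025 (minus) for KRI1, chrXV:52959-53024 (plus) for NOP8 and chrXII:363918-364029 (minus) for REA1. A match describes these letters and is not a measured binding site.
RRP14: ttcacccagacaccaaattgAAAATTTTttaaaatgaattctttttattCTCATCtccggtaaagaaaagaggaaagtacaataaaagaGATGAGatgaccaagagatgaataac
KRI1: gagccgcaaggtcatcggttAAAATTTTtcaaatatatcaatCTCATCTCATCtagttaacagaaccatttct
NOP8: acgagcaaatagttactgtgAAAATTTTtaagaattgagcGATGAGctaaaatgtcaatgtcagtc
REA1: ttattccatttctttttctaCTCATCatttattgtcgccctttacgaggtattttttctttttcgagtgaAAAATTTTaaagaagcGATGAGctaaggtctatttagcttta

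The ribosomal proteins themselves moved in both directions. Of 137 cytosolic ribosomal protein genes 10 rose and 14 fell, with a median of -0.14, and scaled by total reads 17 rose and 4 fell, with the median at 0.02. The count of falls depended on the diauxic shift library, with 41 without library A, 4 without library B, and 0 and 1 without library A or B at stationary phase. RPL18B rose from 242 and 347 to 1003 and 887 (1.70 ± 0.21). RPL16A fell from 698 and 1035 to 393 and 497 (-0.94 ± 0.23), but was not called without library A at stationary phase. RPL41A was called lower (-0.68 ± 0.23), but not without library B of diauxic shift or either library of stationary phase. Of its 37-base stretches, 78.57% are present more than once in the genome. RPL10, among the most abundant per kilobase, overlapped between phases (0.02 ± 0.20). Mitochondrial ribosomal proteins, encoded in the nucleus, had 23 of 66 called higher and 0 lower, with a median of 0.44. Their count was 36 without library A at diauxic shift, 16 without library B, and 12 and 8 without library A or B at stationary phase. MRPS16 had 699 and 617 at diauxic shift and 1665 and 2423 at stationary phase (1.61 ± 0.21), MRPL33 had 1.31 ± 0.19, and MRPS12, the most abundant, was not called (-0.50 ± 0.21).

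Among 30 translation factors 11 rose and 4 fell (4 and 1 without library A at stationary phase, 6 and 0 without library B), with a median of 0.34. FUN12, the initiation factor eIF5B that joins the subunits, rose from 1077 and 1215 to 3162 and 2889 (1.4 ± 0.18, adjusted p = 0.000313), and SUI1, eIF1, was not called (0.46 ± 0.24). TIF1 (-0.86 ± 0.18), 1 of the eIF4A gene pair, was called lower with all libraries but not without library B at stationary phase. Of its 37-base stretches, 88.45% are present more than once in the genome. HYP2 (-0.83 ± 0.26), eIF5A, was called lower with all libraries. It was not called without library B at diauxic shift, without either library of stationary phase, or when scaled by total reads. None of the 8 RNA polymerase I genes rose and 2 fell, the small subunits RPA12 (-1.90 ± 0.57) and RPA14 (-0.96 ± 0.26). Neither was called without library B at stationary phase, and RPA14 was not called without library B at diauxic shift either. RRN3, its initiation factor, was not called (0.11 ± 0.18). Of 19 tRNA ligases 1 rose, SES1 for serine (1.01 ± 0.21, adjusted p = 0.0755 without library A at stationary phase), and 5 fell, among them YDR341C for arginine (-0.78 ± 0.19) and DED81 for asparagine (-0.78 ± 0.19), which were not called without library B at stationary phase (adjusted p = 0.135 and 0.177). DPS1, the aspartate ligase, changed by less than 1.5-fold (0.55 ± 0.19).

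**Figure D3:**
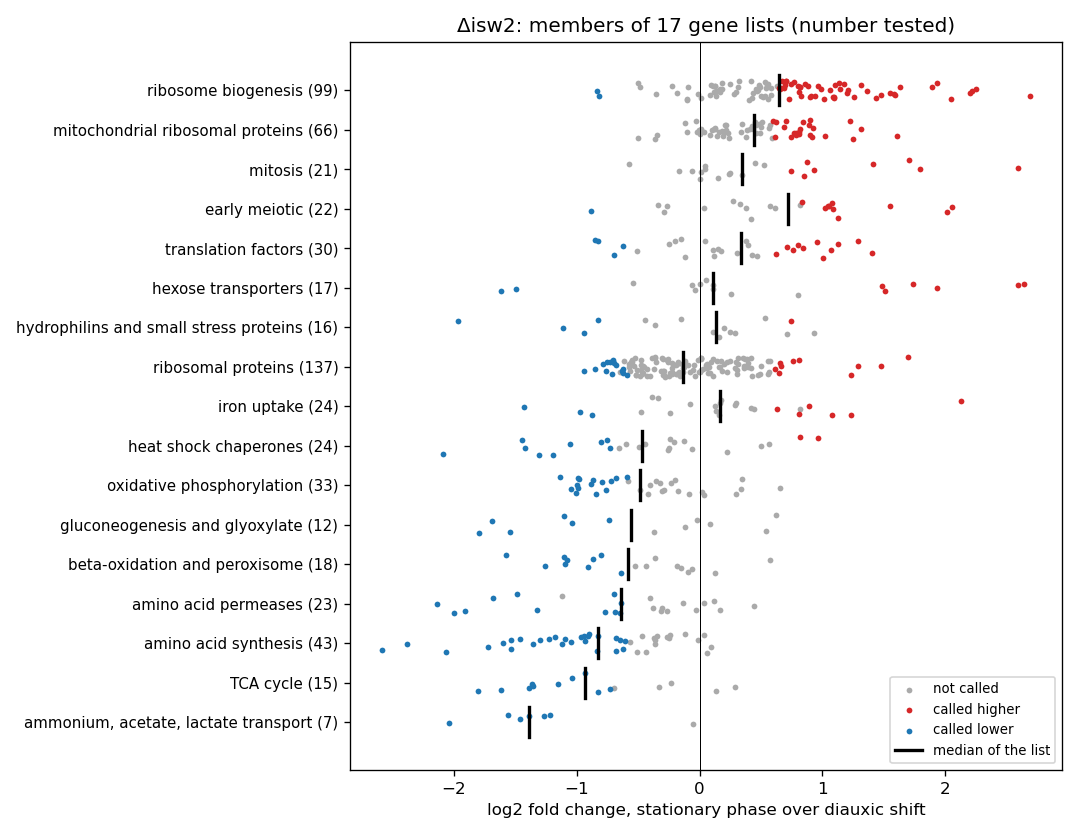
Log2 fold change, stationary phase over diauxic shift, of every tested member of 17 gene lists in Δisw2 (number tested in brackets); 1 point a gene, red called higher, blue called lower, grey not called, black bar the median of the list. Ribosome biogenesis has 50 red points and 2 blue, and amino acid synthesis has 27 blue points and no red.

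Hexose transporters carry glucose and related sugars into the cell, and Snf3 and Rgt2 are the sensors that set their expression. Of the 18 members 17 were tested, of which 6 rose and 2 fell, with a median of 0.11. HXT13, a carrier of hexitols such as mannitol, had 108 and 147 at diauxic shift and 834 and 750.3 at stationary phase, with a log2 fold change of 2.64 ± 0.22 and adjusted p = 3.82e-05 in limma. HXT3, the low-affinity glucose carrier, had 268 and 345 at diauxic shift and 2293 and 1472 at stationary phase (2.59 ± 0.23, adjusted p = 6.83e-05). Both rose from low levels. Of their 37-base stretches, 45.15% for HXT13 and 19.72% for HXT3 are present more than once in the genome. HXT1, the other low-affinity carrier, had 32.9 and 52.9 at diauxic shift and 184 and 108 at stationary phase (1.73 ± 0.35). HXT2, a high-affinity carrier, had 116 and 167 at diauxic shift and 417 and 381 at stationary phase (1.51 ± 0.23), and HXT10 had 96.1 and 128 at diauxic shift and 295 and 333 at stationary phase (1.49 ± 0.23). HXT15 was called higher on few reads, at 3.13 and 6.55 at diauxic shift and 20.7 and 20.1 at stationary phase (1.93 ± 0.66). It lost the call without any 1 library, and 95.8% of its 37-base stretches are present more than once in the genome.

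The falls in the family were those of HXT14, with 263 and 158 at diauxic shift and 60.9 and 84.3 at stationary phase (-1.5 ± 0.30), and HXT9, with 31.3 and 27.5 at diauxic shift and 6.53 and 12 at stationary phase (-1.62 ± 0.54). HXT9 lost the call without any 1 library except library B at stationary phase. Of its 37-base stretches, 68% are present more than once in the genome. The carriers that dominated the RNA stayed level. HXT5, the carrier of slow-growing and starved cells, had 57149 and 55927 at diauxic shift and 52707 and 55904 at stationary phase (-0.06 ± 0.27, adjusted p = 0.877 in limma). HXT6 (0.05 ± 0.20) and HXT7 (0.26 ± 0.18), a high-affinity pair, were not called. For each of the pair 95.1% of its 37-base stretches are present more than once in the genome. HXT4 (0.80 ± 0.38), HXT8 (-0.04 ± 0.39), HXT11 (0.01 ± 0.36), GAL2 (-0.54 ± 0.32), SNF3 (0.11 ± 0.19) and RGT2 (0.11 ± 0.18) were not called either. HXT17 had too few reads for the test.

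Respiratory and gluconeogenic genes, which yeast turns on to live on ethanol, were called in the lower direction or not at all. Of 15 TCA cycle genes 0 rose and 10 fell, with a median of -0.94, and 6 fell without either library of stationary phase. IDH2, a subunit of isocitrate dehydrogenase, had 11850.3 and 15028 at diauxic shift and 4379 and 3338 at stationary phase (-1.80 ± 0.22, adjusted p = 0.000295), and SDH3 of succinate dehydrogenase had 32744 and 28007 at diauxic shift and 10479 and 13256 at stationary phase (-1.36 ± 0.24). SDH2 was called lower (-1.04 ± 0.25), though not without library A or B at stationary phase (adjusted p = 0.111 and 0.0776). Of 33 nuclear genes of oxidative phosphorylation 0 rose and 15 fell, with a median of -0.48, and the falls numbered 2 without library A and 6 without library B at stationary phase, and 11 (with 2 rises) and 22 without library A or B at diauxic shift. NDI1, the NADH dehydrogenase of the inner membrane, had 6208 and 5379 at diauxic shift and 2824 and 2435 at stationary phase (-1.14 ± 0.19), while COX5A was not called (-0.58 ± 0.28) and ATP15 was called lower (-0.99 ± 0.22) but not without library A at stationary phase (adjusted p = 0.14).

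Of 12 genes of gluconeogenesis and the glyoxylate cycle 0 rose and 6 fell (0 and 4 without library A at stationary phase, 0 and 4 without library B), and without library B at diauxic shift 2 rose and 5 fell, with the median at -0.17 in place of -0.55. FBP1, fructose bisphosphatase, had 6918 and 14446 at diauxic shift and 2485 and 3346 at stationary phase (-1.79 ± 0.31), and ACS1, the acetyl-CoA synthetase of cells without glucose, had 57913 and 76616 at diauxic shift and 22862 and 18640.1 at stationary phase (-1.69 ± 0.27). PCK1, the entry step of gluconeogenesis, had 49110.4 and 48731 at diauxic shift and 24578 and 22957 at stationary phase (-1.04 ± 0.25), and did not pass without library A or B at stationary phase (adjusted p = 0.0796 and 0.111). Of 18 beta-oxidation and peroxisome genes 9 fell and 0 rose, with 6 falls without library A and 2 without library B at stationary phase. DCI1 had 402 and 463 at diauxic shift and 144 and 144 at stationary phase (-1.58 ± 0.20), and the abundant CTA1, peroxisomal catalase (-0.09 ± 0.26), and POT1, thiolase (-0.52 ± 0.22), were not called. In glycolysis 1 of 17 rose and 1 fell (0 and 1 without library A at stationary phase, 0 and 1 without library B). GLK1, glucokinase, fell from 46026 and 44653 to 13342 and 13789.5 (-1.74 ± 0.23, adjusted p = 0.000388), TDH2 was called higher with all libraries (0.77 ± 0.26) but not without library A or B at stationary phase (adjusted p = 0.223 and 0.149), and the abundant TDH3 (-0.60 ± 0.38) and TDH1 (-0.35 ± 0.34) were not called.

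Of 13 genes of pyruvate, alcohol and aldehyde steps 5 rose and 5 fell (3 and 3 without library A at stationary phase, 1 and 2 without library B), so the group had no common direction. PDC6, a minor pyruvate decarboxylase, had 12539.6 and 16163 at diauxic shift and 33006 and 41513 at stationary phase (1.38 ± 0.25), and PDC1, the major form, had 50525 and 64105 at diauxic shift and 110333 and 146048 at stationary phase (1.16 ± 0.32). ALD5, a mitochondrial aldehyde dehydrogenase, fell from 439 and 571 to 115 and 124 (-2.05 ± 0.22), and ALD4 was called lower (-0.85 ± 0.28). Neither PDC1 nor ALD4 passed without library A at stationary phase (adjusted p = 0.0597 and 0.159) or without library B (adjusted p = 0.167 and 0.226). Of 11 pentose phosphate genes 4 fell and 0 rose (between 2 and 6 fell when each library was left out, with a median between -0.75 and -0.29), led by ZWF1 (-1.20 ± 0.22), with GND2 (-0.31 ± 0.23) and NQM1 (0.29 ± 0.21) not called. Of 12 glycerol genes 3 rose and 2 fell (2 and 0 without library A at stationary phase, 1 and 0 without library B). STL1, the glycerol importer, had 55.4 and 334 at diauxic shift and 728 and 875 at stationary phase (2.54 ± 0.59), with its diauxic shift libraries far apart, and was not called by DESeq2. GUT1, glycerol kinase, was called lower (-0.63 ± 0.20) but not without library A or B at stationary phase (adjusted p = 0.214 and 0.233), and GUT2 (-0.03 ± 0.28) and GPD1 (-0.43 ± 0.20) were not called.

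Amino acid synthesis genes were lower. Of 43 tested 0 rose and 27 fell, with a median of -0.83, against 17.6% called lower over all genes tested, and 20 fell without library A and 15 without library B at stationary phase. GCN4, the activator of these genes, is mainly set at translation and was abundant and not called, with 24008 and 27618 at diauxic shift and 23846 and 20016 at stationary phase (-0.24 ± 0.24). HOM3 gave the largest fall. TRP4, of tryptophan synthesis, had 1025 and 1367 at diauxic shift and 305 and 261 at stationary phase (-2.07 ± 0.20), ARG1, of arginine synthesis, had 14628 and 18895 at diauxic shift and 5520.0 and 5436 at stationary phase (-1.60 ± 0.21), and ARG4, the last step to arginine, had 6934 and 7057 at diauxic shift and 2625 and 2211 at stationary phase (-1.54 ± 0.19), 3 genes chosen after their values were seen. ILV6, an abundant regulatory subunit of the branched-chain pathway, was not called (-0.44 ± 0.21). The core of the Gcn4 site, TGACTC on either strand, was searched after the values were seen. It was found in 30 of the 43 promoters, in 20 of the 27 called lower, in 10 of the other 16 and in 7.77% of all promoters of the same 300 bases. Stretches around the site in the largest falls that hold it are printed with the site in capitals (GAGTCA is the same site on the other strand), from the R64 (sacCer3) genome at chrV:258216-258258 (minus strand) for HOM3, chrIV:1184562-1184607 (plus) for TRP4, chrXV:218917-218962 (plus) for ARG1 and chrVIII:141556-141601 (minus) for ARG4.
HOM3: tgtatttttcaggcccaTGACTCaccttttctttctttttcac
TRP4: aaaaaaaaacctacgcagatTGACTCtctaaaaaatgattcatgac
ARG1: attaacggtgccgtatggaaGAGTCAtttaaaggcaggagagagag
ARG4: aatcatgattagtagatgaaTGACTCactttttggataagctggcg

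Genes for uptake of nitrogen compounds and for sulfur use were lower too. Of 23 amino acid permeases 11 fell and 0 rose, with a median of -0.64, and 6 fell without either library of stationary phase. GNP1, the glutamine permease, had 1165 and 3069 at diauxic shift and 427 and 429 at stationary phase (-2.14 ± 0.35), while GAP1, the general permease, was abundant and overlapped between phases (-0.03 ± 0.24). BAP2, for branched-chain amino acids, was called lower (-0.70 ± 0.23) but not without library A or B at stationary phase (adjusted p = 0.13 and 0.317). Of 7 carriers of ammonium, acetate and lactate 6 fell, with a median of -1.39. ADY2, the acetate carrier, had 30507 and 33440.1 at diauxic shift and 9583 and 6315 at stationary phase (-2.04 ± 0.25, adjusted p = 0.000298), and its relative ATO2 fell (-1.22 ± 0.25), though not without library B at stationary phase (adjusted p = 0.0983). Of 22 sulfur and methionine genes 12 fell and 1 rose, with a median of -0.65, and 10 fell without either library of stationary phase. MET8, which makes siroheme for sulfite reductase, was the rise, with 138 and 173 at diauxic shift and 388 and 361 at stationary phase (1.27 ± 0.21), and CYS4 was called lower (-0.67 ± 0.18) but not without library A or B at stationary phase (adjusted p = 0.103 and 0.18).

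Of 30 cell wall genes 6 fell and 1 rose, so the share called lower (20%) was near the 17.6% of all genes tested. The median was -0.41, and it ran from -0.52 to -0.16 when each library was left out. CWP2, an abundant wall protein, was not called (-0.58 ± 0.32), and GAS2, a wall enzyme used in spores, was called higher (0.89 ± 0.19) but not without library B at stationary phase (adjusted p = 0.0581). Of 7 DAN, TIR and PAU mannoprotein genes, which cells use in low oxygen, 4 rose and 1 fell (3 and 0 without library A at stationary phase, 2 and 1 without library B). PAU23 had 334 and 310.2 at diauxic shift and 829.9 and 935 at stationary phase (1.45 ± 0.18), TIR2 rose (1.00 ± 0.22), and TIR3 was called lower (-0.95 ± 0.25) but not without library A at stationary phase (adjusted p = 0.0882).

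Cell cycle genes were mixed. Of 14 genes of G1 and Start 5 rose and 3 fell (4 and 2 without library A at stationary phase, 1 and 1 without library B). CLN3, the cyclin that starts the cycle, fell from 1562 and 942 to 593 and 502 (-1.15 ± 0.24, adjusted p = 0.00431). SWI4, the transcription factor of late G1, was called higher (1.00 ± 0.21), as was SIC1, the inhibitor of the S phase kinase (0.87 ± 0.22), but neither passed without library B at stationary phase (adjusted p = 0.0613 and 0.146). STB1 fell by less than 1.5-fold (-0.58 ± 0.17). Of 21 mitotic genes 8 rose and 0 fell, with a median of 0.35, and 4 and 5 rose without library A or B at stationary phase. BUD4, which marks the bud neck, had 146 and 209.7 at diauxic shift and 1126 and 999 at stationary phase (2.59 ± 0.22, adjusted p = 4.69e-05), whereas CDC28, the main cell cycle kinase, changed by less than 1.5-fold (-0.57 ± 0.17), and CDH1 was not called (-0.17 ± 0.18).

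In replication and its licensing 3 of 30 rose and 2 fell (1 and 0 without library A at stationary phase, 1 and 0 without library B). CDC21, thymidylate synthase, rose (0.99 ± 0.19), and RNR2 (-1.03 ± 0.23) and RNR4 (-0.67 ± 0.19), the small subunits of ribonucleotide reductase, were called lower but not without library A at stationary phase (adjusted p = 0.0681 and 0.161) or without library B (adjusted p = 0.0716 and 0.211). Among 11 histone genes 2 rose and 2 fell, and the divergent neighbours HTA2 and HTB2 moved apart. HTA2 for H2A had 240.2 and 345 at diauxic shift and 625 and 549.7 at stationary phase (1.02 ± 0.22), and HTB2 for H2B had 349 and 762 at diauxic shift and 218 and 265 at stationary phase (-1.10 ± 0.31), which did not pass without library B at diauxic shift (adjusted p = 0.0528) or without library A at stationary phase (adjusted p = 0.0841). HHT2 (-0.25 ± 0.29) and HHF1 (-0.04 ± 0.21), the abundant histone genes, were not called. Of 14 DNA damage genes 4 rose and 1 fell (3 and 1 without library A at stationary phase, 1 and 1 without library B). RAD16, of nucleotide excision repair, had 735 and 881 at diauxic shift and 1712 and 1645 at stationary phase (1.06 ± 0.18). HUG1, an inhibitor of ribonucleotide reductase that damage turns on, had 266 and 244 at diauxic shift and 66.3 and 56.2 at stationary phase (-2.04 ± 0.24, adjusted p = 0.000267), and RAD23 was not called (0.01 ± 0.20).

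Early meiotic genes, where Ume6 recruits Isw2 in yeast, included RED1, HFM1 and other members that rose from diauxic shift to stationary phase in cells that lacked Isw2 throughout. Of 22 tested 10 rose and 1 fell, with a median of 0.72, and 8 and 5 rose without library A or B at stationary phase. Their levels were low to moderate. RED1, of the meiotic chromosome axis, had 188 and 287.5 at diauxic shift and 989 and 951 at stationary phase (2.06 ± 0.22, adjusted p = 0.000155), and HFM1, the meiotic helicase, had 354 and 321 at diauxic shift and 1021 and 963 at stationary phase (1.55 ± 0.18, adjusted p = 0.0002). HOP1, another axis protein, had 462 and 404 at diauxic shift and 952 and 835 at stationary phase (1.04 ± 0.18), REC8, the meiotic cohesin, had 506 and 456 at diauxic shift and 1017 and 1015 at stationary phase (1.08 ± 0.18), and REC107, a factor of meiotic break formation, had 1002 and 848 at diauxic shift and 1914 and 2110.4 at stationary phase (1.12 ± 0.18). All 5 kept the call without any 1 library.

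IME1, the master activator of meiosis, had 3418 and 525 at diauxic shift and 4609.6 and 6363 at stationary phase, so the diauxic shift libraries lay far apart. Its rise (2.01 ± 0.62, adjusted p = 0.0266) was not called by edgeR or DESeq2, nor without library B at stationary phase (adjusted p = 0.094). IRT1, the noncoding RNA whose transcription silences IME1 in haploid cells, lies upstream on chromosome X at 605936 to 607424 and rose from 1236 and 1298 to 5015 and 4738 (1.94 ± 0.17, adjusted p = 5.97e-05). ZIP1 (1.02 ± 0.29), ZIP2 (0.83 ± 0.24), HED1 (1.05 ± 0.24) and REC114 (1.09 ± 0.35) were called higher, and none of these 4 passed without library B at stationary phase (adjusted p = 0.211, 0.0984, 0.0851 and 0.167). ZIP2 shares most of its length with RME3, an antisense RNA that was also called higher (0.65 ± 0.23, adjusted p = 0.352 without library A at stationary phase), and without strand their reads cannot be told apart. REC104 was the fall, with 232 and 221 at diauxic shift and 116 and 128 at stationary phase (-0.88 ± 0.22, adjusted p = 0.0744 without library A at stationary phase).

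The other early genes were not called. They were IME2 (0.42 ± 0.22), the kinase that drives entry into meiosis, IME4 (-0.29 ± 0.89), whose reads cannot be told apart without strand from those of the overlapping antisense RNA RME2, SPO11 (0.33 ± 0.31), the enzyme that cuts DNA for recombination, SPO13 (0.82 ± 0.36), SPO16 (0.38 ± 0.29), REC102 (-0.26 ± 0.27), MEI4 (0.28 ± 0.36), MEI5 (-0.34 ± 0.76), MEK1 (0.62 ± 0.27), DMC1 (0.04 ± 0.20), the meiotic recombinase, and SAE3 (0.57 ± 0.27). MER1 had too few reads for the test. The core of the Ume6 site, GGCGGC on either strand, was present in 15 of the 23 early meiotic promoters (65.2%) and in 5.2% of all promoters, and in 5.33% of promoters of genes called higher and 5.36% of those called lower.

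**Figure D4:**
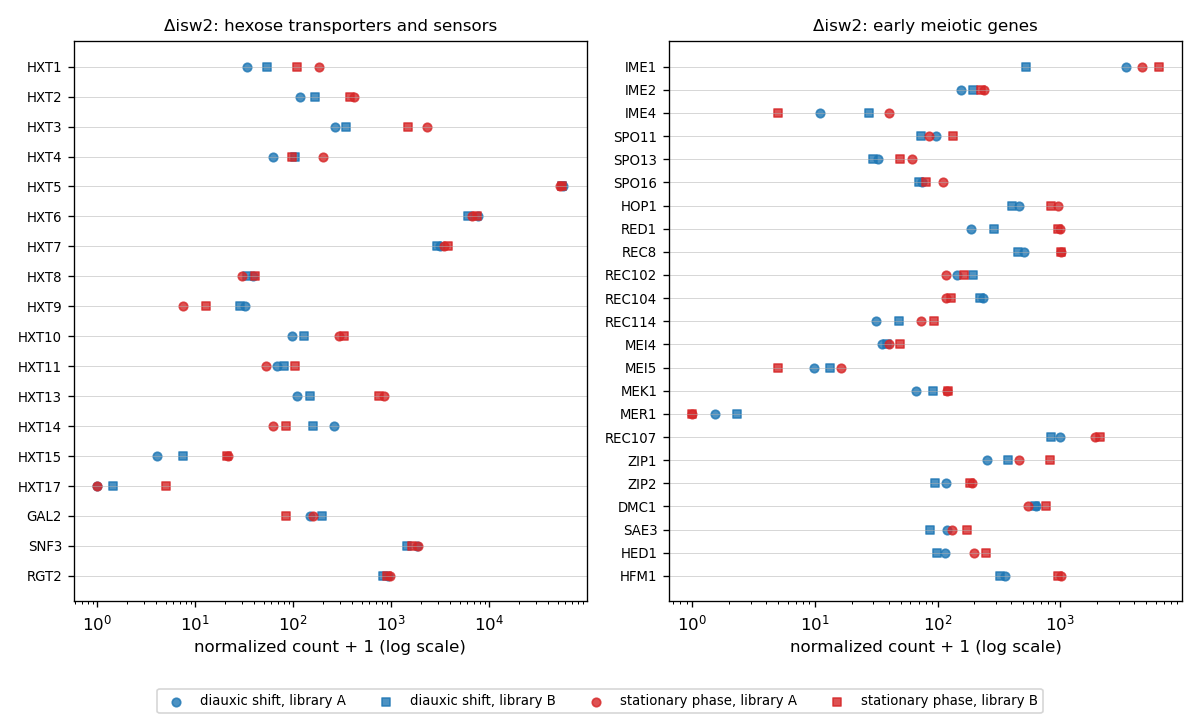
Normalized count + 1 (log scale) in each Δisw2 library of the hexose transporter and sensor genes found in both tables (left) and of the early meiotic genes (right), blue at diauxic shift and red at stationary phase, circles for library A and squares for library B. HXT3 and HXT13 show red points well to the right of the blue, HXT5 stays level, and the blue points of IME1 lie far apart.

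Middle and late sporulation genes had 10 of 28 called higher and 2 lower (7 and 1 without library A at stationary phase, 7 and 1 without library B). SPS4 rose from 96.1 and 38.9 to 276 and 389 (2.4 ± 0.38), and SPR6 from 613 and 666 to 1752 and 1866 (1.5 ± 0.17). SPS100, a spore wall gene, was at the level of the most abundant RNAs in every library and not called, with 87114 and 87853 at diauxic shift and 83899 and 94705 at stationary phase (0.03 ± 0.30). An antisense RNA, SUT169, overlaps 946 bases of SPS100, and without strand their reads cannot be told apart there. DIT1, of spore wall dityrosine synthesis, fell from 1189 and 914 to 457 and 502 (-1.12 ± 0.19, adjusted p = 0.00161). Of the genes of mating type a, 2 of 7 fell and 0 rose, with ASG7 the larger fall (-1.19 ± 0.22) and the pheromone genes MFA1 (-0.05 ± 0.18) and MFA2 (-0.45 ± 0.20) not called. Of 4 genes of mating type alpha, MF(ALPHA)2 rose (2.67 ± 0.46), and SAG1 (0.52 ± 0.21) and MF(ALPHA)1 (0.47 ± 0.28) were not called. STE3 was called lower (-0.88 ± 0.20), though not without library A at stationary phase. MF(ALPHA)2 rested on few reads, and a filter that asked for 50 reads in every library of a phase left it out.

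Of 24 heat shock chaperones 2 rose and 9 fell, with a median of -0.47, and the falls numbered 15 and 6 without library A or B at diauxic shift and 5 and 4 without library A or B at stationary phase. AHA1, an activator of Hsp90, had 3435 and 7627 at diauxic shift and 1139 and 1264 at stationary phase (-2.09 ± 0.31, adjusted p = 0.0007), with its diauxic shift libraries more than 2-fold apart. SSA4, an inducible Hsp70, was called higher (0.97 ± 0.31) but not by edgeR or in the fit of 8 libraries. It was also not called without library A at diauxic shift or library B at stationary phase. HSP30 overlapped between phases (-0.24 ± 0.34). Of 16 hydrophilins and small stress proteins 1 rose and 4 fell (0 and 2 without library A at stationary phase, 0 and 3 without library B). YGP1, a secreted glycoprotein of starved cells, had 49959 and 50956 at diauxic shift and 11354 and 14716 at stationary phase (-1.96 ± 0.25, adjusted p = 0.000311). NOP6, listed there as a hydrophilin and known for small subunit assembly, was the rise (0.74 ± 0.19) and did not pass without library A or B at stationary phase (adjusted p = 0.0792 and 0.113). The stress response element AGGGG, on either strand, was in 12 of these 16 promoters, in 22.2% of all, in 20.9% of promoters of genes called higher and in 21.7% of those called lower.

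Of 23 oxidative stress genes 1 rose and 6 fell (1 and 3 without library A at stationary phase, 1 and 3 without library B). CTT1, the cytosolic catalase, was the rise, with 9911 and 13857 at diauxic shift and 31759 and 33421 at stationary phase (1.47 ± 0.24, adjusted p = 0.00135), and TSA2, a peroxiredoxin, fell (-1.16 ± 0.21), while SOD1 (-0.66 ± 0.25) and TSA1 (-0.55 ± 0.28), the abundant members, were not called. In trehalose and glycogen metabolism 2 of 18 rose and 5 fell (2 and 3 without library A at stationary phase, 1 and 1 without library B). GAC1, which directs a phosphatase to glycogen synthase, had 9404 and 7209 at diauxic shift and 17788 and 22825 at stationary phase (1.29 ± 0.23), and TSL1, of the trehalose synthase complex, had 8758 and 15450.2 at diauxic shift and 5134 and 4393 at stationary phase (-1.29 ± 0.26), and their adjusted p without library B at stationary phase were 0.0509 and 0.0513. TPS1 (-0.59 ± 0.22) and PGM2 (0.21 ± 0.21) were not called. Of 22 autophagy genes 4 rose and 2 fell, but none was called without library B at stationary phase. In this list, which does not hold ATG41 named above, ATG3 (1.00 ± 0.18) was the largest rise and ATG33 (-0.78 ± 0.21) the largest fall. ATG8 was not called (0.53 ± 0.25). Of 33 proteasome genes 2 rose and 3 fell (0 and 2 without library A at stationary phase, 0 and 3 without library B), with PRE4 (-1.17 ± 0.19) the largest fall, PRE2 not called (-0.11 ± 0.19), and PUP2 called higher (0.66 ± 0.18) but not without library A or B at stationary phase (adjusted p = 0.0716 and 0.253).

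Nutrient genes moved by nutrient. An antisense RNA overlaps 1764 bases of PHO84, named below, and without strand their reads cannot be told apart there. Of 24 iron uptake genes 6 rose and 3 fell (4 and 2 without library A at stationary phase, 3 and 1 without library B). FIT3, a wall protein that holds siderophores, had 2769.9 and 2086 at diauxic shift and 6700.2 and 4762 at stationary phase (1.23 ± 0.22), and its neighbour FRE5, a putative reductase, had 7.83 and 14.9 at diauxic shift and 64.2 and 40.1 at stationary phase (2.13 ± 0.49), whereas FIT2 beside them was not called (-0.39 ± 0.20). FRE1, the main iron and copper reductase, was called lower (-1.43 ± 0.33, adjusted p = 0.0769 without library B at stationary phase). Of 20 phosphate genes 2 rose and 6 fell (1 and 3 without library A at stationary phase, 1 and 3 without library B), with PHO4, the activator, higher (1.07 ± 0.19), PHM6 (-1.59 ± 0.30) and VTC1 (-1.11 ± 0.19), of polyphosphate synthesis, lower, and PHO84, the main carrier, not called (-0.61 ± 0.30). Of 11 zinc genes 7 fell and 1 rose, with 1 and 4 falls without library A or B at stationary phase. ZRT1, the high-affinity carrier, had 38431 and 71278 at diauxic shift and 12403 and 28285 at stationary phase (-1.48 ± 0.40), with library B above library A in both phases, and did not pass without library A at stationary phase (adjusted p = 0.19). ZRT2 was not called (-0.67 ± 0.27), and ZPS1, the rise (0.62 ± 0.21), did not pass without library A or B at stationary phase (adjusted p = 0.16 and 0.286).

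Of 27 ergosterol genes 6 fell and 0 rose, with 13 falls without library A at diauxic shift, 3 without library B, and 4 and 1 without library A or B at stationary phase. MVD1 was the largest fall (-1.19 ± 0.20), and ERG25 (-0.41 ± 0.29) and ERG28 (-0.41 ± 0.21) were not called. Of 17 vitamin B6 and thiamine genes 3 rose and 3 fell (1 and 2 without library A at stationary phase, 1 and 0 without library B). THI21 rose (1.11 ± 0.17), SNO1 was not called (0.09 ± 0.21), SNZ1 was called higher (0.75 ± 0.22) and PHO3 lower (-1.31 ± 0.32), and without library B at stationary phase neither SNZ1 nor PHO3 passed (adjusted p = 0.194 and 0.068). Of 17 genes for galactose, maltose and sucrose 4 rose and 4 fell (2 and 2 without library A at stationary phase, 2 and 2 without library B). GAL80, the repressor of the galactose genes, fell from 3538 and 3513 to 1828 and 1725 (-0.99 ± 0.17). GAL3 (-1.01 ± 0.24), MPH3 (1.22 ± 0.33) and MAL31 (0.71 ± 0.17) were called but not without library B at stationary phase. Of the 37-base stretches of MPH3, 98.25% are present more than once in the genome. Of 25 nucleotide synthesis genes 4 rose and 5 fell (3 and 3 without library A at stationary phase, 1 and 1 without library B), with URA2, the first enzyme of pyrimidine synthesis, at 4373 and 6159 at diauxic shift and 13994 and 13609 at stationary phase (1.41 ± 0.22), PRS4 lower (-1.21 ± 0.24), and URA10 (-0.00 ± 0.21) and ADE16 (0.13 ± 0.20) not called. Of 5 mitochondrially encoded genes tested, OLI1 was called lower at the threshold (-1.26 ± 0.45, adjusted p = 0.0499) and lost the call without any 1 library (adjusted p between 0.0569 and 0.361), and 21S_RRNA was not called (-0.14 ± 0.34).

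The change between phases was then compared with that of wild type, in a fit of 8 libraries with the difference of the changes as its term. Of 6362 genes tested 0 were called by limma, 0 by edgeR and 2 by DESeq2. The lowest adjusted p in limma was 0.403, and 251 genes (3.95%) had an unadjusted p under 0.05, of which 244 differed by at least 1.5-fold. The log2 fold changes of the strains correlated across 6143 genes with r = 0.841, a description with no test. The genes called by DESeq2 were DIT1 and FPR4. DIT1, on the scale of the 8 libraries, went from 1463 and 1129 to 565 and 616 in Δisw2 and from 359.6 and 397 to 586 and 578 in wild type, a difference of -1.74 ± 0.26 (SE), with adjusted p = 0.403 in limma, 0.330 in edgeR and 4.97e-04 in DESeq2. FPR4, a proline isomerase that acts on histones and in the nucleolus, rose from 445 and 495 to 1000.9 and 808 in Δisw2 and went from 739 and 682 to 527 and 425 in wild type, a difference of 1.52 ± 0.27, with adjusted p = 0.813 in limma, 0.687 in edgeR and 0.0146 in DESeq2. Without library B of wild type at diauxic shift limma called 5 genes, all with a more negative change in Δisw2, namely TIP1 (-2.29), DPA10 (-2.54), ADH2 (-3.08), FRE7 (-2.53) and PMA2 (-3.05). These 5 were higher in library B than in library A of wild type at diauxic shift, with ADH2 at 40599.8 against 2446 and PMA2 at 16833 against 1990. With all 8 libraries the standard errors of the differences of ADH2 and PMA2 were 1.36 and 1.07. An absence of calls therefore does not show that the strains changed alike.

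Of the genes named above, HUG1 differed in direction, at -2.04 in Δisw2 and 0.18 in wild type, with a difference of -2.22 ± 0.69 and adjusted p = 0.998. Its counts on the scale of the 8 libraries were 327 and 301 in Δisw2 at diauxic shift against 7.23 and 24.9 in wild type. HXT13 (1.03 ± 0.37), HXT3 (0.86 ± 0.41) and HXT1 (1.39 ± 0.63) had more positive changes in Δisw2, each with adjusted p = 0.998, so none passed the test, while HXT9 stood at -0.53 ± 0.56 and the median difference of the hexose transporters was 0.06.

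By list, the medians of the strains were mostly close. Ribosome biogenesis stood at 0.65 in Δisw2 and 0.01 in wild type, and the difference was positive for 93 of 99 members, with a median of 0.54 that ran from 0.40 to 0.75 when each of the 8 libraries was left out. Of the 99, 30 had an unadjusted p under 0.05, against 3.95% of all genes. Fewer did without library B of wild type at stationary phase, where the share over all genes fell too. Heat shock chaperones stood at -0.47 in Δisw2 and 0.46 in wild type, with a negative difference for 23 of 24 members and a median of -0.86. That median ran from -1.21 to -0.52 when each library was left out. With all 8 libraries 10 members had an unadjusted p under 0.05. Fewer did without library B of Δisw2 at diauxic shift or library B of wild type at stationary phase. More did without library A of Δisw2 or library B of wild type at diauxic shift. The share over all genes moved the same way in each of these fits, to differing extents. Early meiotic genes stood at 0.72 in Δisw2 and 1.13 in wild type (median difference -0.34, from -0.68 to -0.10). RNA polymerase I genes stood at 0.04 in Δisw2 and -0.70 in wild type (median difference 0.45). The tRNA ligases stood at -0.11 in Δisw2 and -0.65 in wild type (median difference 0.20). Of the RNA polymerase I genes and tRNA ligases, 0 of 8 and 1 of 19 members had an unadjusted p under 0.05. Other lists had larger median differences than the tRNA ligases. Among them were gluconeogenesis and glyoxylate (0.33), sulfur and methionine (-0.31), glycolysis (-0.30), cell wall (0.26) and translation factors (0.26). The lists were not tested as sets, and no member passed the adjusted threshold in limma, so these values describe the 8 libraries.

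**Figure D5:**
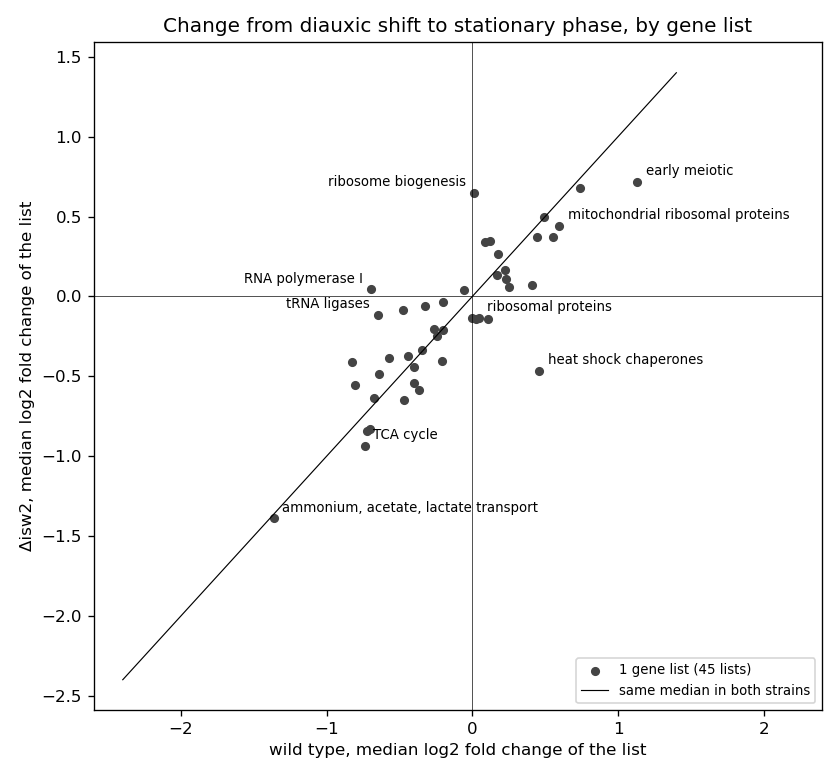
Median log2 fold change from diauxic shift to stationary phase of 45 gene lists in wild type (x axis) and in Δisw2 (y axis), 1 point a list; the diagonal marks the same median in both strains. Ribosome biogenesis lies above the diagonal (0.65 against 0.01) and heat shock chaperones below it (-0.47 against 0.46), while most lists lie near it.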

How the data were processed

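RNA-Seq libraries of Δisw2 and wild type, 2 a phase, were used, from 1 table for each phase. The submitters' processing notes name Bowtie2, DESeq2 and the sacCer3 build, without versions, and the counting program, its annotation and its use of strand are not given in the sources used here. Each deposited value is a signal, the reads on a gene divided by a DESeq2 size factor that the authors set within a table. The authors also deposited columns of their own comparison of deletion with wild type, namely a mean signal, a log2 fold change with its error, a score (the Wald statistic) and p-values, which were not used. Dividing by the value of 1 read gave whole reads for 100% of values.

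The 4 Δisw2 libraries were joined on gene and scaled together by the median of ratios. The log2(normalized count + 1) values of genes that passed edgeR's filter on low counts were tested with limma 3.58.1 (trended empirical Bayes, R 4.3.3), with Benjamini-Hochberg adjustment. A gene was called at an adjusted p under 0.05 and 1.5-fold. The difference from wild type was fitted over 8 libraries scaled together. edgeR 4.0.16 and DESeq2 1.42.0 on the recovered reads, other scalings, pseudocounts, filters and thresholds, thinned reads, a replicate block and each library left out were alternatives, and the fits were tested on simulated data. The study calls the 2 libraries of a group biological replicates, and the labels do not say that their cultures were separate, so the p-values measure only the spread between these libraries.

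The members and the 46 gene lists were chosen with earlier results of these data known. The results of 1 of these lists and of 1 gene are not reported here. Named genes were all tested members of the Isw2 partner, hexose transporter and early meiotic lists, the 12 strongest called rises and 12 strongest called falls, given 100 or more normalized counts on average and phases that did not overlap, the 5 most abundant per kilobase in each phase, and from every other list the largest called rise and fall and the 2 most abundant members per kilobase. Genes outside this rule were named after their values were seen: KRI1, NOP8, REA1, TRP4, ARG1, ARG4, ICR1, IRT1, RME3, and FPR4, DPA10, ADH2, FRE7 and PMA2 for the difference from wild type.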

Additional observations from a re-analysis of the deposited data

How the results depend on the processing

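The count of 2151 genes called between phases lay between 1934 and 2356 under TMM, total reads, edgeR, DESeq2, other pseudocounts and filters, thinning to the shallowest library, the 8-library fit and no fold threshold. It was 425 (237 higher, 188 lower) when limma tested against 1.5-fold itself, and 1293 (659 higher, 634 lower) at an adjusted p under 0.01. Total reads moved the share of calls that were higher from 49.7% to 65.2%. The values as deposited, scaled within each table, gave 5646 calls, with 28 higher (0.496%) and 5618 lower and the median gene at -1.77 on the log2 scale, so they were not carried to single genes or lists. Leaving out each library gave between 1007 and 2463 calls, with 495 to 1196 higher and 512 to 1267 lower, the lowest without library B at stationary phase, which held 3076006 reads and was the shallowest. For the difference from wild type limma called 0 genes, DESeq2 2 (1 more positive, 1 more negative) and an unadjusted p under 0.05 gave 244 (137 more positive, 107 more negative), and leaving out each library gave between 0 and 5. Of the 233 genes tracked, 111 kept the same call in every alternative. No gene changed sign where the main fit or the alternative called it. Sign changes of genes called in neither fit were not counted. The replicate numbers are not stated to pair libraries, and the deviations of the A libraries correlated at -0.119 over 5384 genes. A replicate block gave 2207 calls (1072 higher, 1135 lower) and 0 for the difference from wild type. The crossed pairing, added after the data were seen, gave 2190 calls.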
